A study of Mus musculus with 18 samples.

Results

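The genes *C1qa*, *C1qb*, *C1qc*, *C3*, *Cfb* and *Cfp* encode components of complement, and *C3ar1* and *C5ar1* encode receptors for its fragments. They were chosen by gene symbol, and all 8 were found among the 56748 genes of the count table. Complement is a cascade of blood and tissue proteins that marks targets for phagocytosis, attracts leukocytes and opens membranes. C1q recognizes its targets and starts the classical pathway, C3 is the component on which all pathways meet, and factor B and properdin drive the alternative pathway, which amplifies C3 cleavage. The fragments C3a and C5a act on receptors of myeloid cells, and macrophages both make complement proteins and carry these receptors.

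RNA was measured in a mouse macrophage line, a transformed line that grows in culture, in 6 conditions with 3 libraries each. The control cells received no treatment. TBHQ (tert-butylhydroquinone, a phenolic antioxidant used as a food preservative) was given at 5 µM for 4 h, LPS (lipopolysaccharide, a bacterial stimulus) at 0.1 µg/mL for 12 h, and PIC (Poly(I:C), a mimic of viral double-stranded RNA) at 20 µg/mL for 12 h. In the LPS + TBHQ and PIC + TBHQ conditions the 4 h of TBHQ came before the 12 h of the stimulus. The TBHQ stock was made in DMSO, and for the sequenced cells without TBHQ no DMSO is described. In every comparison with and without TBHQ, TBHQ and its solvent therefore cannot be told apart. Cells given TBHQ alone were collected at the end of the 4 h, and the labels give no time of collection for the control cells. In the comparisons of TBHQ alone, LPS and PIC with the control, treatment and the time of collection therefore cannot be told apart. The methods name the 3 samples of a condition biological replicates of 1 line, and p-values measure the spread between these samples. Total counts were 14423390 to 18851626 per library, with a median of 15742337.

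The cells carried the genes of macrophages. Of 8 macrophage markers, 7 had a mean of at least 1 FPKM (fragments per kilobase of gene length, scaled to library size) in a condition, and the summed level of the 8 was 4320 FPKM with PIC at the lowest and 5412 FPKM in the control at the highest. Lysozyme (*Lyz2*) was the most abundant, with a mean of 4021 FPKM over all libraries, and made up most of the sum. *Mertk*, an engulfment receptor, had 0 to 5 counts. Single markers moved in opposite directions. From control to PIC the means of *Lyz2* (4531 to 3464 FPKM), *Csf1r* (153.7 to 86.07 FPKM), *Cd68* and *Fcgr1* fell. Those of *Adgre1* (18.37 to 67.64 FPKM), *Itgam* and *Ptprc* rose. Of 4 osteoclast markers, 3 were present (*Ctsk*, *Acp5* and *Ocstamp*), with a summed level of 224 to 272 FPKM over the conditions. Both sums moved between conditions, and their part in the results was not tested. Markers of T and B cells, neutrophils, hepatocytes, fibroblasts and epithelial cells each summed to at most 0.258 FPKM in any library, and those of dendritic cells to at most 0.370 FPKM. In RNA from whole cultures, fewer cells of a type and less RNA per cell cannot be told apart.

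The 3 chains of C1q were at the detection floor in every condition. *C1qa*, *C1qb* and *C1qc* encode the A, B and C chains, which assemble into 1 recognition protein, and tissue macrophages are known as a main source of it. *C1qa* had 0 counts in each of the 18 libraries, and so had *C1qb* and *C1qc*. With 3 counts as the floor, 0 counts in the 285464738 counts of all libraries allows up to 0.0105 CPM (counts scaled to library size) for each chain. In single libraries the limit was 0.159 CPM in the deepest and 0.208 CPM in the shallowest. Per length, the limit over all libraries was 0.0101 FPKM for *C1qa*, 0.00966 FPKM for *C1qb* and 0.00544 FPKM for *C1qc*. These limits cover counting error only. The genes lie next to each other on the minus strand of chromosome 4, at 136623228 to 136626114, 136607440 to 136613498 and 136617115 to 136620376 in the positions of the authors' table. In the GENCODE vM21 annotation none of their exon bases lay in another gene on the same strand, and 0 of their words of 50 bases occurred in another gene's transcripts. No comparison of these genes was possible in any condition.

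The remaining 5 genes differed widely in level. In the control, *Cfp* had a mean of 105 ± 4.74 FPKM (SD, n = 3), *C3ar1* 34.3 ± 2.17 FPKM and *C5ar1* 8.998 ± 1.07 FPKM. *C3* had 1.23 ± 0.152 FPKM and *Cfb* 0.0293 ± 0.0255 FPKM. This order held in each control library. With PIC the order changed, since *C5ar1* at 60.6 ± 1.502 FPKM lay above *C3ar1* at 52.4 ± 1.499 FPKM in all 3 libraries. The genes thus ranged from a transcript as rare as *Cfb* to *Cfp*, which ranked 443 by its control level among the 27701 genes with a count in any library.

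**Figure D1:**
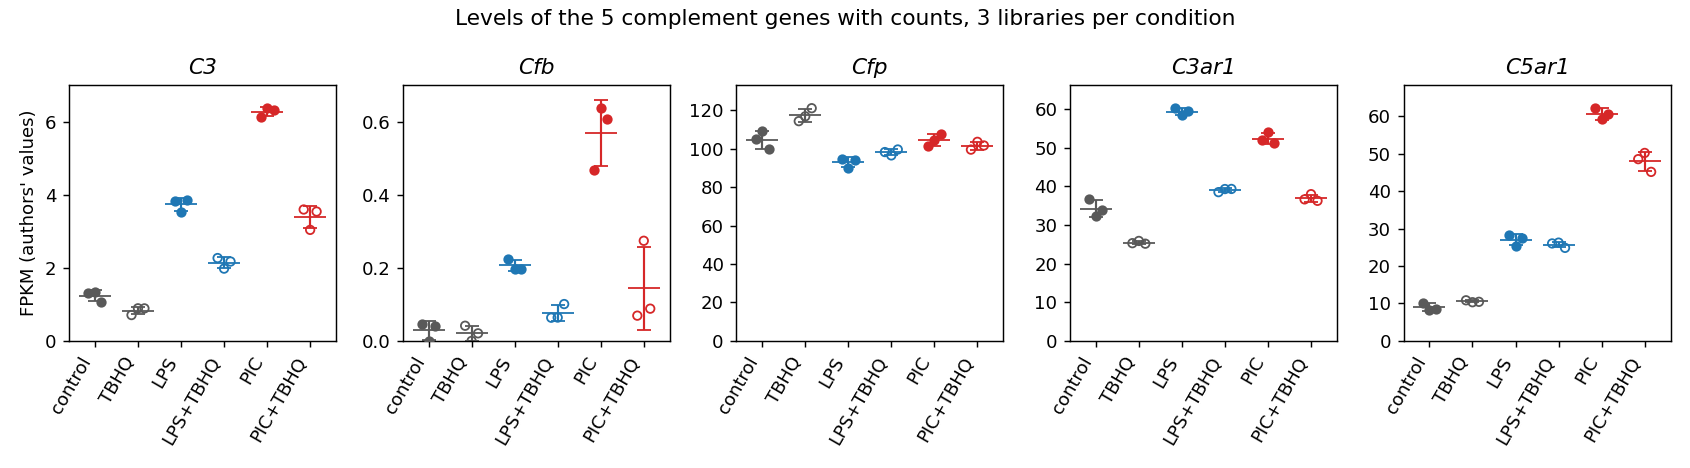
FPKM as given by the authors (vertical axes, each starting at 0) of the 5 members with counts in the 6 conditions. Points are libraries, horizontal bars are means and whiskers are 1 SD of 3 libraries, with open points for conditions with TBHQ. The *C3* libraries with PIC sit between 6.12 and 6.37 FPKM, above those of every other condition, and *Cfb* was at the detection floor in the control and with TBHQ alone.

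*C3* encodes the central component, whose cleavage gives the anaphylatoxin C3a and the opsonin C3b. The gene is on chromosome 17 at 57510970 to 57535136, minus strand, and had 62 to 551 counts per library. The control libraries had 1.32, 1.32 and 1.06 FPKM, the LPS libraries 3.82, 3.53 and 3.86 FPKM, and the PIC libraries 6.12, 6.37 and 6.33 FPKM. Every LPS library was above every control library, and every PIC library above every LPS library. *C3* rose with LPS, with a log2FC of 1.59 ± 0.11 (SE, n = 3 per condition; adjusted p = 7.43e-15). The rise with PIC was larger, with a log2FC of 2.33 ± 0.11 (adjusted p = 1.39e-20), and PIC against LPS gave 0.74 ± 0.04 (adjusted p = 4.39e-08).

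*C3* was lower with TBHQ than without it in each of 3 settings, alone and before either stimulus. With TBHQ alone the libraries had 0.707, 0.892 and 0.890 FPKM, below those of the control. After LPS + TBHQ they had 2.27, 1.98 and 2.17 FPKM, and after PIC + TBHQ 3.595, 3.04 and 3.54 FPKM. Neither set overlapped with that of its stimulus alone, and the LPS + TBHQ libraries stayed above the control. The mean of *C3* rose in the order TBHQ, control, LPS + TBHQ, PIC + TBHQ, LPS and PIC, and of these neighbours only PIC + TBHQ and LPS overlapped. *C3* fell by 0.57 on the log2 scale with TBHQ alone (SE 0.15, adjusted p = 0.00120), by 0.81 with LPS + TBHQ against LPS (SE 0.07, adjusted p = 6.00e-08) and by 0.87 with PIC + TBHQ against PIC (SE 0.08, adjusted p = 9.48e-10). The difference between the last 2 effects was -0.07 ± 0.11 and did not pass the test (adjusted p = 0.882).

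*Cfb* encodes factor B, the serine protease that joins C3b in the C3 convertase of the alternative pathway. Its counts were near the floor, and the gene passed the filter on low counts only through its counts with PIC. The control libraries had 2, 0 and 2 counts and those with TBHQ alone 2, 0 and 1, so that *Cfb* was at the detection floor in both conditions. The LPS libraries had 9, 8 and 8 counts, and the PIC libraries 18, 25 and 29. After LPS + TBHQ the libraries had 3, 3 and 5 counts and after PIC + TBHQ 3, 11 and 4. Both stimuli put every library above the control, and PIC put every library above LPS. The libraries with TBHQ before a stimulus lay below those of the stimulus alone, and 3 of these 6 libraries were at the floor of 3 counts. The order from low to high was TBHQ, control, LPS + TBHQ, PIC + TBHQ, LPS and PIC, in which TBHQ overlapped with the control, and PIC + TBHQ with LPS + TBHQ and with LPS.

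From the summed counts, scaled by the effective library sizes, *Cfb* with LPS was 7.04 times the control, with a 95% interval of 2.43 to 27.8 from counting error alone. With PIC the ratio was 19.4 (7.26 to 73.2), and PIC against LPS gave 2.76 (1.73 to 4.54). The ratio of LPS + TBHQ to LPS was 0.370 (0.164 to 0.780), and that of PIC + TBHQ to PIC 0.246 (0.138 to 0.416). In edgeR, which takes up the spread between replicates, *Cfb* rose with LPS (adjusted p = 0.00185) and PIC (adjusted p = 1.97e-07), was higher with PIC than with LPS (adjusted p = 0.00898) and fell with PIC + TBHQ against PIC (log2FC -1.99 ± 0.48, adjusted p = 0.000657). Since *Cfb* was kept for testing only through the group in which it was highest, calls that involve PIC rest in part on that choice. Each of them also passed with no filter on low counts, but on the same counts, so that this gives no separate support. Without each library in turn the log2FC of *Cfb* was -2.81 to -1.67 for PIC + TBHQ against PIC, with -2.81 without PIC + TBHQ replicate 2, which had 11 counts, and it was 2.15 to 3.11 for LPS against control. For LPS + TBHQ against LPS the log2FC was -1.40 ± 0.15 with an adjusted p of 0.0781, which did not pass. The SE values of *Cfb* come from log2 CPM with a prior count of 2, which narrows the spread at low counts. They are not on the scale of the fitted log2FC, and for LPS + TBHQ against LPS the interval from counting error given above is wider. On log2(FPKM + 0.1) in limma the same comparison gave -0.81 with an adjusted p of 0.0394, and over all alternatives the adjusted p lay between 0.0394 and 0.186. In GENCODE vM21, 79.5% of the exon bases of *Cfb* also belong to *Gm20547* on the same strand, a gene that spans *C2* and *Cfb*. *Gm20547* had 0 counts in every library, and how fragments shared by both genes were counted is not given in the sources used here, so that the level of *Cfb* is uncertain.

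*Cfp* encodes properdin, which stabilizes the C3 convertase of the alternative pathway. It was the most abundant of the 8 genes in every condition. The gene is on chromosome X at 20791693 to 20797794, minus strand. The control libraries had 105, 109 and 99.9 FPKM, the LPS libraries 94.8, 90.0 and 94.2 FPKM, and the PIC libraries 101, 104 and 108 FPKM. The LPS libraries were below all the others, whereas the PIC libraries overlapped with the control. *Cfp* fell by 0.18 on the log2 scale with LPS (SE 0.04, adjusted p = 0.000249), and the log2FC with PIC was -0.02 ± 0.04 (adjusted p = 0.696). PIC against LPS gave 0.16 ± 0.03 (adjusted p = 0.00207). Scaling by the total library size in place of TMM gave *Cfp* a log2FC of -0.24 with PIC (adjusted p = 1.53e-06) and ended the call of PIC against LPS (0.03, adjusted p = 0.579).

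With TBHQ alone the *Cfp* libraries had 114, 117 and 121 FPKM, all above the control. After LPS + TBHQ they had 98.3, 96.5 and 99.6 FPKM and after PIC + TBHQ 99.5, 104 and 102 FPKM. The LPS + TBHQ libraries all lay above those of LPS, and the PIC + TBHQ libraries overlapped with those of PIC. The mean of *Cfp* was lowest with LPS, followed by LPS + TBHQ, PIC + TBHQ, PIC, control and TBHQ, and among these neighbours only LPS at the lower end and TBHQ at the upper end were apart from the others. *Cfp* rose by 0.16 ± 0.04 (log2FC) with TBHQ alone (adjusted p = 0.00127). The log2FC was 0.08 ± 0.03 for LPS + TBHQ against LPS (adjusted p = 0.172), which did not pass. For PIC + TBHQ against PIC it was -0.03 ± 0.03 (adjusted p = 0.602), and 0.04 when scaled by total library size, neither of which passed.

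*C3ar1* encodes the receptor of C3a, a G protein-coupled receptor of myeloid cells. The gene is on chromosome 6 at 122824097 to 122833120, minus strand, and had 1822 to 3728 counts per library. The control libraries had 36.7, 32.4 and 33.8 FPKM, the LPS libraries 60.2, 58.4 and 59.4 FPKM, and the PIC libraries 51.9, 54.0 and 51.1 FPKM. Every stimulated library was above every control library, and unlike the order for *C3* the LPS libraries were above the PIC libraries. *C3ar1* rose with LPS (log2FC 0.79 ± 0.05, adjusted p = 1.60e-18) and with PIC (0.59 ± 0.06, adjusted p = 2.57e-15). PIC against LPS gave -0.19 ± 0.03 (adjusted p = 0.000252), and *C3ar1* was the only tested member that was lower with PIC than with LPS.

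With TBHQ alone the *C3ar1* libraries had 25.3, 25.9 and 25.2 FPKM, the lowest of the series. After LPS + TBHQ they had 38.5, 39.3 and 39.3 FPKM, and after PIC + TBHQ 36.6, 38.0 and 36.3 FPKM. None of these 3 sets overlapped with its comparison group. The mean of *C3ar1* rose in the order TBHQ, control, PIC + TBHQ, LPS + TBHQ, PIC and LPS, and only the control and PIC + TBHQ overlapped. *C3ar1* fell by 0.43 on the log2 scale with TBHQ alone (SE 0.05, adjusted p = 2.47e-10), by 0.61 with LPS + TBHQ against LPS (SE 0.01, adjusted p = 8.93e-15) and by 0.49 with PIC + TBHQ against PIC (SE 0.03, adjusted p = 2.95e-12). The difference between the last 2 effects was 0.11 ± 0.03 and did not pass after adjustment (adjusted p = 0.352).

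*C5ar1* encodes the receptor of C5a, the most potent anaphylatoxin for the recruitment of phagocytes. The gene is on chromosome 7 at 15980668 to 15993465, minus strand, and had 343 to 2631 counts per library. The control libraries had 10.2, 8.19 and 8.59 FPKM, the LPS libraries 28.2, 25.3 and 27.5 FPKM, and the PIC libraries 62.1, 59.1 and 60.5 FPKM. The 3 conditions did not overlap. *C5ar1* rose with LPS (log2FC 1.58 ± 0.11, adjusted p = 1.80e-21) and with PIC (2.74 ± 0.10, adjusted p = 8.67e-30), and PIC against LPS gave 1.16 ± 0.05 (adjusted p = 5.30e-19).

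*C5ar1* was higher with TBHQ alone and lower with TBHQ before PIC. With TBHQ alone the libraries had 10.8, 10.3 and 10.4 FPKM, just above the highest control library. After LPS + TBHQ they had 26.0, 26.2 and 24.8 FPKM, which overlapped with LPS, and after PIC + TBHQ 48.5, 50.2 and 45.1 FPKM, all below PIC. The mean of *C5ar1* rose in the order control, TBHQ, LPS + TBHQ, LPS, PIC + TBHQ and PIC, and only LPS + TBHQ and LPS overlapped. *C5ar1* rose by 0.23 ± 0.10 (log2FC) with TBHQ alone (adjusted p = 0.0123). That call rested on single libraries, since it ended without control replicate 2 (log2FC 0.17, adjusted p = 0.116), without control replicate 3 (0.20, adjusted p = 0.0689) or without TBHQ replicate 1 (0.21, adjusted p = 0.0526), in a range of adjusted p over all alternatives of 0.000669 to 0.116. With LPS + TBHQ against LPS the log2FC was -0.07 ± 0.05 (adjusted p = 0.380), which did not pass, and with PIC + TBHQ against PIC *C5ar1* fell by 0.33 on the log2 scale (SE 0.05, adjusted p = 2.78e-06). The difference between these 2 effects was -0.25 ± 0.07 and missed the threshold (adjusted p = 0.0755). It passed in DESeq2 (-0.27, adjusted p = 0.0214), on the libraries of the compared conditions only (-0.27, adjusted p = 0.0408), with other filters on low counts and without PIC replicate 2 (-0.28, adjusted p = 0.0492), and the adjusted p lay between 0.0214 and 0.195 over all alternatives.

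The balance of the 2 receptors shifted across the conditions, a ratio chosen after the values were seen and given as a description. *C3ar1* per *C5ar1* in FPKM within a library was 3.59 to 3.95 in the control, 2.33 to 2.51 with TBHQ, 2.13 to 2.31 with LPS and 1.48 to 1.58 with LPS + TBHQ. With PIC it was 0.836 to 0.914 and with PIC + TBHQ 0.755 to 0.804. The ranges of the 6 conditions did not overlap, and only with PIC, with or without TBHQ, was *C5ar1* the more abundant receptor transcript.

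Counted over the 5 members that could be tested, and called at an FDR below 0.05, 4 rose and 1 fell with LPS, beside 24.0% of the 13691 tested genes that rose and 24.1% that fell. With PIC 4 rose and none fell, beside 28.6% and 30.1%; the fifth, *Cfp*, passed as lower when scaled by total library size. Under the stricter limits stated by the study (FDR below 0.01, with |log2FC| over 2), 1 member passed with LPS (*Cfb*), beside 1.64% of tested genes, and 3 with PIC (*C3*, *Cfb* and *C5ar1*), beside 3.57%. The pass of *Cfb* with LPS rested on single libraries. Without each library in turn its adjusted p was 0.00399 to 0.0172, and the upper end misses the limit of 0.01. With TBHQ alone 2 rose (*Cfp* and *C5ar1*), beside 14.2%, and 2 fell (*C3* and *C3ar1*), beside 14.8%. LPS + TBHQ against LPS gave 2 lower members (*C3* and *C3ar1*), beside 12.2%, and none higher, beside 11.7%. PIC + TBHQ against PIC gave 4 lower members, all but *Cfp*, beside 15.5%, and none higher, beside 15.8%. PIC against LPS gave 4 higher members, beside 14.9%, and 1 lower, beside 12.8%. With 5 genes, of which *Cfb* was tested because of its counts with PIC, these counts say nothing about complement as a group. LPS, PIC and TBHQ alone were compared with the same control libraries, so that their counts do not stand apart from each other.

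Scaling by the total library size in place of TMM moved the median log2FC of all tested genes by over 0.1 in 2 comparisons, from -0.01 to -0.23 with PIC against control and from -0.01 to -0.14 with PIC against LPS. The share of called genes that were higher moved with it, from 48.7% to 26.4% with PIC, from 49.8% to 35.0% with LPS and from 53.7% to 18.4% in PIC against LPS. It moved from 48.9% to 59.5% for LPS + TBHQ against LPS, from 50.6% to 70.3% for PIC + TBHQ against PIC, from 45.0% to 76.1% for the effect of TBHQ in PIC against that in LPS, and from 51.4% to 70.0% for its effect in PIC against TBHQ alone. Apart from *Cfp*, every member kept its call and its direction in the 6 comparisons of conditions under this scaling.

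The difference between the effects of TBHQ in PIC and in LPS was called in edgeR for 0 of the 5 members, beside 0.825% of tested genes that were higher and 1.01% that were lower. The unadjusted p in edgeR was 0.0493 for *C3ar1* and 0.00181 for *C5ar1*, and *C5ar1* passed after adjustment in DESeq2. The shares of all tested genes at an unadjusted p and in DESeq2 are not given here. These values therefore describe the single genes and say nothing about the members as a set. A test of the effect in a stimulus against that of TBHQ alone was added after the values had been seen. In LPS it called 2 members as lower (*C3ar1* and *C5ar1*), beside 9.33% of tested genes lower and 9.14% higher. In PIC it called 2 as lower (*Cfp* and *C5ar1*), beside 12.5% lower and 13.3% higher. Scaled by total library size, each of these 2 tests called *C5ar1* only. In both tests the stimulus and the longer time after TBHQ cannot be told apart.

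Other genes of the complement system were taken from a list of 42, of which 16 had enough counts to be tested. Initiators, terminal components and soluble regulators were mostly at the floor. Of the 42, 13 had 0 counts in every library, among them *C1s1*, *Mbl2*, *C6*, *C7*, *C8a* and *C8b*, and a further 7 never exceeded 3 counts. A mean of at least 1 FPKM in a condition was reached by 11, among them *C1ra*, *Masp2*, *Fcna*, *C8g*, *Itgam*, *Itgax*, *Itgb2*, *Cd59a*, *Cr1l* and *Clu*. No terminal component but *C8g* was among them, and the *C8g* and *Masp2* genes overlap expressed genes on the opposite strand, *Fbxw5* and *Tardbp*. Of the 16 tested, 4 rose and 2 fell with LPS, or 37.5% called in either direction, beside 24.0% of all tested genes higher and 24.1% lower, and the median log2FC was 0.17 beside 0.00. With PIC 4 rose and 2 fell, again 37.5%, beside 28.6% higher and 30.1% lower (median 0.04 beside -0.01). With TBHQ alone 1 rose and 5 fell, 37.5%, beside 14.2% higher and 14.8% lower (median -0.35 beside 0.00). With LPS + TBHQ against LPS none rose and 2 fell, 12.5%, beside 11.7% higher and 12.2% lower (0.15 beside 0.00), and with PIC + TBHQ against PIC 1 rose and 2 fell, 18.8%, beside 15.8% higher and 15.5% lower (0.01 beside 0.01). In PIC against LPS 2 rose and none fell, 12.5%, beside 14.9% higher and 12.8% lower (-0.02 beside -0.01). Scaling by total library size added calls. *Itgb2*, *Cr1l* and *Fcna* then passed as lower in PIC against LPS (log2FC -0.18, -0.16 and -0.40, adjusted p = 9.74e-05, 0.00326 and 0.0342). *Cr1l* (-0.19) and *Fcna* (-0.38) passed as lower with PIC. *Itgb2* (0.13) and *Fcna* (0.43) passed as higher in PIC + TBHQ against PIC, and *Itgam* (0.15) in LPS + TBHQ against LPS. The counts above are of few genes and were not tested as a group.

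Among the receptors on the list, the chains of complement receptor 3 were abundant. *Itgb2*, the shared beta chain, was at 97.2 ± 4.49 FPKM in the control and rose with LPS (log2FC 0.43 ± 0.05, adjusted p = 2.35e-12) and with PIC (0.37 ± 0.04, adjusted p = 3.67e-11). Its rise with TBHQ alone (log2FC 0.11 ± 0.05, adjusted p = 0.0177) ended without control replicate 1 (0.08, adjusted p = 0.137), without control replicate 3 (0.11, adjusted p = 0.0512) or without TBHQ replicate 2 (0.09, adjusted p = 0.112). *Itgam*, the alpha chain, rose from 10.6 ± 0.198 FPKM with LPS (log2FC 0.96 ± 0.09, adjusted p = 3.16e-16) and with PIC (1.25 ± 0.05, adjusted p = 4.54e-20) and fell by 0.41 on the log2 scale with TBHQ alone (SE 0.06, adjusted p = 3.62e-06). In GENCODE vM21, 68.7% of its exon bases are shared with *Gm49368*, which had 0 to 21 counts, so that its level is uncertain. *Itgax*, the alpha chain of complement receptor 4, had 0.752 ± 0.0995 FPKM in the control and 0.234 ± 0.125 FPKM with TBHQ alone, which means it fell by 1.67 on the log2 scale (SE 0.39, adjusted p = 2.82e-05). Among the initiators, *C1ra*, a protease of the C1 complex, had 0.927 ± 0.232 FPKM in the control and 0.576 ± 0.179 FPKM with TBHQ alone, with overlapping libraries. *C1ra* fell by 0.68 on the log2 scale (SE 0.35, adjusted p = 0.0455), and this ended in DESeq2 (-0.68, adjusted p = 0.0501), on the compared conditions only (-0.68, adjusted p = 0.0563), in limma, and without control replicate 1 (-0.59, adjusted p = 0.148), control replicate 3 (-0.56, adjusted p = 0.18) or TBHQ replicate 2 (-0.45, adjusted p = 0.249). Of its words of 50 bases, 50.8% also occur in *C1rb* or *Gm18840*, so that its level is uncertain.

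The regulators, which limit complement on the cell's own surface or in fluid, moved in both directions. *Cd59a*, which blocks the membrane attack complex, had 5.45 ± 0.431 FPKM in the control and rose with LPS (log2FC 0.48 ± 0.08, adjusted p = 0.000434) and with PIC (0.54 ± 0.12, adjusted p = 5.84e-05) and fell by 0.58 with TBHQ alone (SE 0.09, adjusted p = 0.000268). *Cr1l*, the rodent regulator Crry, was at 11.8 ± 0.261 FPKM in the control and fell by 0.23 on the log2 scale with TBHQ alone (SE 0.03, adjusted p = 6.97e-05), by 0.13 with LPS + TBHQ against LPS (SE 0.03, adjusted p = 0.0175) and by 0.18 with PIC + TBHQ against PIC (SE 0.04, adjusted p = 0.00104). The *Cr1l* call with LPS + TBHQ ended without LPS replicate 1 (-0.13, adjusted p = 0.0605), without LPS replicate 2 (-0.12, adjusted p = 0.0631), without LPS + TBHQ replicate 1 (-0.11, adjusted p = 0.113), with scaling by total library size (-0.11, adjusted p = 0.056) and with no filter on low counts (-0.12, adjusted p = 0.0907). *Clu*, the fluid-phase regulator clusterin, had 0.391 ± 0.122 FPKM in the control, rose with LPS (log2FC 1.35 ± 0.27, adjusted p = 3.96e-05) and with PIC (2.04 ± 0.26, adjusted p = 4.51e-09), and fell by 0.86 with LPS + TBHQ against LPS (SE 0.18, adjusted p = 0.00789) and by 1.28 with PIC + TBHQ against PIC (SE 0.17, adjusted p = 2.57e-05).

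**Figure D2:**
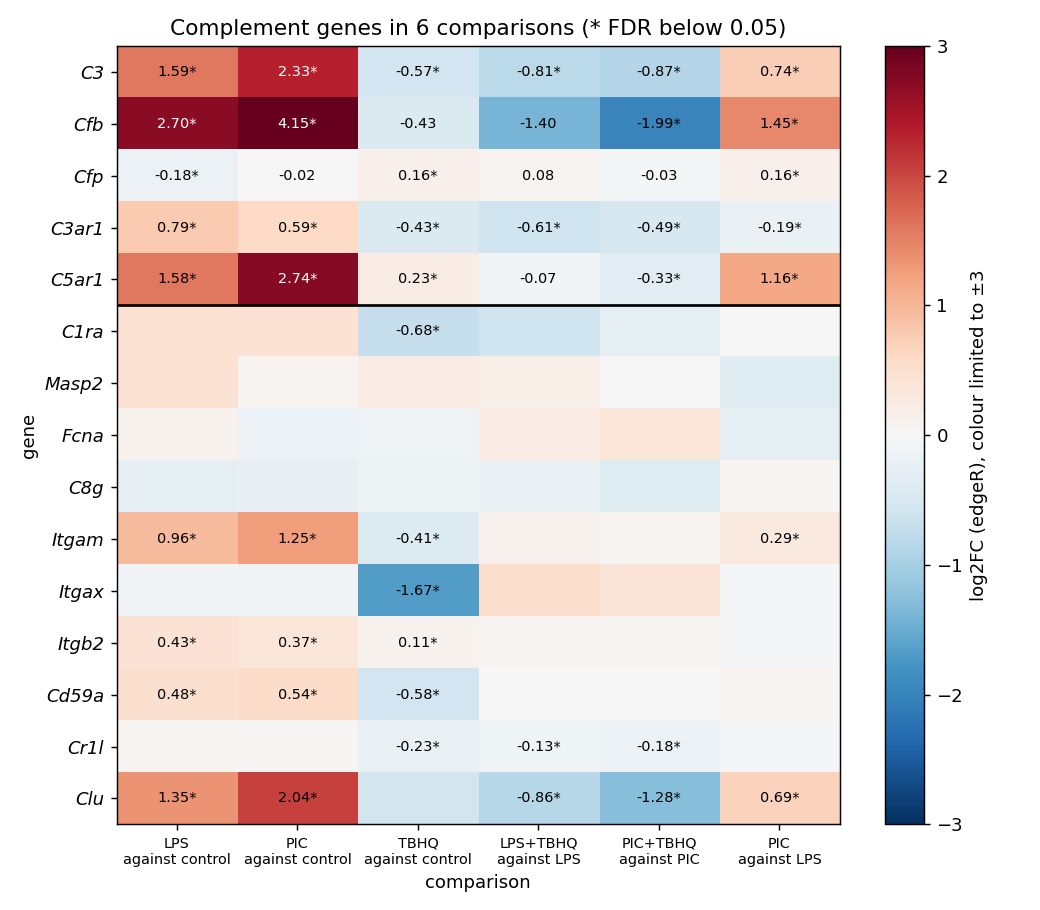
Fitted log2FC from edgeR (colour, limited to 3 in either direction) of the 5 tested members, above the line, and of 10 other complement genes with at least 1 FPKM, in 6 comparisons (columns). *Cfb* was at the detection floor on both sides of TBHQ against control. An asterisk marks an FDR below 0.05, and for genes under the line a number is printed only where that was reached; *Cfp* passed as lower in PIC against control, and lost the call in PIC against LPS, when scaled by total library size, as did *Cr1l* in LPS + TBHQ against LPS, and the same scaling added 8 calls among the genes under the line.

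The genes most like each member over the 18 libraries were sought among 13686 tested genes by Pearson's r of log2 CPM, as a description in which all genes share the same libraries and conditions. For *C3* they were *Pfkp* (r = 0.990), *Il6* (r = 0.990) and *Mpeg1* (r = 0.989). For *C5ar1* they included *Cdc42ep2* (r = 0.994) and *Rps6ka2* (r = 0.994), and for *C3ar1* *Serpinb6b* (r = 0.969), *Cd47* (r = 0.967) and *Slc28a2* (r = 0.967). The likeness was lower for *Cfp*, with *Igf2r* (r = 0.936), *Eif3l* (r = 0.930) and *Lamp1* (r = 0.912).

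Promoter windows from RefSeq (build GRCm38.p6, 250 bases before to 50 after the gene start) were used for 6 of the 8 genes, all but *C1qa* and *Cfb*, and were searched on both strands because *C3*, *C3ar1* and *C5ar1* rose with both stimuli while *Cfp* did not. The motifs were the interferon-stimulated response element core GAAANNGAAA, which 3.44% of the 32851 windows hold, the antioxidant response element core TGACNNNGC (12.4%), the PU.1 core GAGGAAGT (3.20%) and the kappa-B consensus (4.51%). The windows of *C3*, *C3ar1* and *C5ar1* held none of these letters, and that of *Cfp* held 1 antioxidant response element core, 90 to 82 bases before the start on the gene's own strand. The window of *C1qb* held that core on the opposite strand, and that of *C1qc* a kappa-B match and, on the opposite strand, a PU.1 core. A match is a description of the letters only. The 150 bases before the start follow for the 4 genes that have both counts and a window, with the match in capitals, from chr17:57228137-57228286, chrX:20931556-20931705, chr6:122856158-122856307 and chr7:16259339-16259488, all on the minus strand.
C3: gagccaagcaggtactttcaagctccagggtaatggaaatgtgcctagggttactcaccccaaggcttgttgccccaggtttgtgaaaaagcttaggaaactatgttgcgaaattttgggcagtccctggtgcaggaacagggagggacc
Cfp: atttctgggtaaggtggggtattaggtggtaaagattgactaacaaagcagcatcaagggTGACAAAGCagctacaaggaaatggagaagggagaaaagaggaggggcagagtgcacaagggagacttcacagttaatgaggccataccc
C3ar1: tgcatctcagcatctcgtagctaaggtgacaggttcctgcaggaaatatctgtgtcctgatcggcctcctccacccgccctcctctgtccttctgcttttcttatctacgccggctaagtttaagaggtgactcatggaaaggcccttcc
C5ar1: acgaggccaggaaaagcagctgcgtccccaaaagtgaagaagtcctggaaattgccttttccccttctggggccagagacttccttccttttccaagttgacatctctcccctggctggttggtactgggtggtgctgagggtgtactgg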

How the data were processed

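RNA was poly(A)-selected and sequenced as paired-end, strand-specific libraries. According to the submitters' processing notes the authors used HISAT2 2.0.5, StringTie 1.3.3b and featureCounts 1.5.0-p3. The authors deposited raw counts per gene, and FPKM values, which equal the counts per gene length and library total times a constant per library of 0.943 to 1.12. The positions printed for genes are those of the authors' table, of which 1485 of 52073 shared identifiers start where GENCODE vM21 (GRCm38) has them, so no build is named for them.

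Counts were tested in R 4.3.3 with edgeR 4.0.16 (TMM, filterByExpr, glmQLFit and glmQLFTest, all 18 libraries in 1 fit with 1 coefficient per condition), with Benjamini-Hochberg adjustment over the 13691 genes tested. Standard errors come from the spread of log2 CPM (prior count of 2), and the floor was 3 counts. The alternatives were DESeq2 1.42.0, limma 3.58.1 on FPKM, other scalings, filters and thresholds, a replicate block and leaving out each library. The members and lists were chosen with earlier results of these data known. Named were the 8 members, other complement genes with a mean of at least 1 FPKM in a condition, overlapping genes, and for members with a mean of at least 50 counts the 3 most alike genes. Results of 2 genes that this rule names are not reported here. Protein sequences were not analysed here.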

Additional observations from a re-analysis of the deposited data

Results flagged for a closer look

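The effect of TBHQ in a stimulus was set against its effect alone in a test added after the values had been seen, and a difference between groups passed in edgeR for 3 members (adjusted p over all genes tested). *C5ar1* differed by -0.30 ± 0.11 on the log2 scale in LPS (adjusted p = 0.0146), a call that ended without control replicate 2 (-0.24, adjusted p = 0.0783) or control replicate 3 (-0.27, adjusted p = 0.051). In PIC *C5ar1* differed by -0.56 ± 0.11 (adjusted p = 5.95e-06), every TBHQ library lay above the control and every PIC + TBHQ library below PIC, and the adjusted p was at most 0.000332 under all alternatives but the threshold of the study. *C3ar1* differed by -0.17 ± 0.06 in LPS (adjusted p = 0.0281). That call ended without control replicate 2 (-0.13, adjusted p = 0.123), control replicate 3 (-0.17, adjusted p = 0.066), TBHQ replicate 2 (-0.16, adjusted p = 0.0763), LPS replicate 1 (-0.17, adjusted p = 0.0541) or LPS + TBHQ replicate 1 (-0.16, adjusted p = 0.0679), with no filter on low counts (-0.16, adjusted p = 0.0988) and with scaling by total library size (-0.15, adjusted p = 0.0643). *Cfp* differed by -0.19 ± 0.05 in PIC (adjusted p = 0.00789), a call that ended with scaling by total library size (-0.12, adjusted p = 0.0922). Cells given TBHQ alone were collected at the end of the 4 h of TBHQ, and those given TBHQ before a stimulus after a further 12 h. Time and stimulus therefore cannot be told apart.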

How the results depend on the processing

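Of 477 log2FC values of members under other settings, 436 kept direction and side of the threshold, 28 lost a call, most of them under the stricter limits of the study, 10 gained one and 3 reversed. Without each library in turn, 346 of 360 kept both, 10 lost a call, 1 gained one and 3 reversed. None of the reversed values was called. The mean FPKM values of the 5 members with counts, recomputed from counts, gene lengths and TMM library sizes, all moved by less than 1 SD, and those of the C1q chains, at 0 counts, cannot move. With scaling by total library size, *Cfp* in PIC + TBHQ against PIC reversed to 0.0384 and *C3ar1* in the effect of TBHQ in PIC against TBHQ alone to 0.0118, both by the shift of all genes. *Cfp* in PIC against control was 0.00576 among genes with a mean of at least 50 counts, and -0.05475 to 0.0165 without each library in turn. *Cfb* in TBHQ against control, at the floor in both, was -1.26 to 0.0827 without each library in turn.

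The number of members called for the effect of TBHQ in PIC against that in LPS rose from 0 to 1 with no filter on low counts, with a mean of at least 50 counts, in DESeq2 and on the compared conditions only, and was 0 to 1 without each library in turn. For the effect in LPS against TBHQ alone it was 1 in place of 2 with total library size and with no filter, and 0 to 2 without each library in turn. For the effect in PIC against TBHQ alone it was 1 with total library size and 4 with limma on log2(FPKM + 1). The cause was not tested. Under the stricter limits of the study it was 1 for LPS against control and 0 for TBHQ against control, 0 for LPS + TBHQ against LPS, 0 for PIC + TBHQ against PIC, 0 for PIC against LPS, 0 for the effect in LPS against TBHQ alone and 0 for that in PIC, under limits that are stricter on both the FDR and the fold. The other 84 of 99 counts stayed within 1.5 times their value.

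Among called values of other complement genes, 209 of 236 kept their call under other settings and 121 of 132 without each library, and 15 of 422 uncalled values, and 6 of 264 without each library, became called. Libraries of a condition share a replicate number across conditions. Over 45 pairs with the same number, residual r was -0.0444 to 0.0645, and 7 of 18 libraries were closest to their own number, so no pairing was used. A replicate block changed no member's call. The filter on a mean of 50 counts left out *Cfb*, and DESeq2 gave it no adjusted p in some comparisons. At the depth reached, a gene under 3 counts in a library cannot be told from an absent one.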

Other observations

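The data cover RNA of 1 cell line at 1 time per condition, with 3 libraries each. Complement proteins and receptors on the cell surface were not analysed here. The level of *Cfb* rests on at most 29 counts per library, and that of the C1q chains on none. None of the 18 libraries was given TBHQ alone and collected at the time of the stimulated cells.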
